A study of Homo sapiens with 4 samples.

Results

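The genes described here build and anchor the epithelial sheet: integrins, cadherins, protocadherins and claudins, laminins and collagens, keratins, metalloproteases, serpins and the S100A calcium-binding proteins. They were chosen by symbol alone, as all genes of these families to which the table of differential ac4C peaks assigned a peak. The rule found 31 genes, 30 of them protein-coding and 1 an antisense RNA (KRT7-AS), among the 2483 genes with a differential peak and the 6723 genes with a peak in either condition. All 31 matched a RefSeq gene by symbol, and the differential peaks of all 31 lay on that gene. Because gene symbols were available only for genes of the differential table, each of the 31 had a differential peak by construction, and this is no finding.

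The study asked how NAT10, the acetyltransferase that writes N4-acetylcytidine (ac4C) on RNA, acts in head and neck squamous cell carcinoma. RNA of FaDu cells, an established line from a squamous carcinoma of the hypopharynx, was fragmented and pulled down with an anti-ac4C antibody (acRIP-seq). The cells carried either a control short hairpin RNA (shNC) or one against NAT10 (shNAT10), and both were stable lentiviral lines. Each condition had 1 immunoprecipitated (IP) library with 1 matching input, which makes 4 libraries. The lists held 6403 peaks in shNC and 6417 in shNAT10, and they gave no read counts, so the depth of the libraries is unknown. With no replicates, no test between the conditions was possible, and differences below are differences between these libraries. Fold enrichment is the signal of the IP over that of the input, so a change in the IP and a change in the input cannot be told apart. The files hold no expression level, so the depletion of NAT10 was not checked here.

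Epithelial cells hold to the basement membrane through integrins, which bind laminins outside the cell and, in hemidesmosomes, keratin filaments inside it. Cadherins and claudins join neighbouring cells, the former in adhesive junctions and the latter in the seal of the tight junction. ac4C is a modified cytidine, and its sites in RNA have been linked to a C-rich motif, CXX repeated 4 times, in which each C is followed by 2 bases of any kind.

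Peak sequences could be read for 1 stretch only, at the start of S100A11, where the shNC peak ran 30 bases further than the shNAT10 peak. It is shown because it is the piece of RNA by which the extents of the S100A11 peaks differed. It lies on the minus strand at chr1:152036974-152037003 (GRCh38.p14, sequence from RefSeq), and no complete copy of the C-rich motif started in it.
S100A11: aggagaggctccagacccgcacgccgcgcg

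The 31 genes carried 50 peaks in shNC and 50 in shNAT10. A peak was called shared when its exonic blocks overlapped a peak of the other list by at least 1 base on the same strand. In shNC, 11 of 50 peaks had no overlapping shNAT10 peak, which is 22.0% (exact 95% interval 11.5 to 36.0%), whereas 48.3% of the peaks of all genes and 43.9% of those of genes with a differential peak had none. In shNAT10, 12 of 50 peaks had no overlapping shNC peak, 24% (13.1 to 38.2%), beside 48.5% and 42.9%. The keratins held 17 of the 50 peaks in each list. Without them the unshared shares were 30.3% (10 of 33, 15.6 to 48.7%) in shNC and 33.3% (11 of 33, 18.0 to 51.8%) in shNAT10, and both intervals reached the shares of all genes. The intervals describe only how many peaks were counted, and peaks of 1 gene are not independent of each other. Both lists held a peak of the gene for 25 of the 31 genes (80.6%), beside 58.9% of the genes with a differential peak. CDH24 and COL1A1 had peaks in shNC only (6.45%), and ADAM19, ADAM9, CLDN1 and KRT10 in shNAT10 only (12.9%). Of the genes with a differential peak, 21.5% were listed in shNC only and 19.6% in shNAT10 only, and of all genes 25.8% and 26.0%.

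The peaks of these genes ranked high in both lists. Median fold enrichment was 20.6 in shNC and 23.9 in shNAT10, beside 12.4 in both lists over all genes. Of the 50 peaks, 24 in shNC (48.0%) and 25 in shNAT10 (50%) fell in the top 25% of their list, a range that held 30.4% and 30.8% of the peaks of genes with a differential peak. Without the keratins the count was 12 of 33 (36.4%) in either list. Shared peaks had higher values than unshared ones, with medians of 32.5 and 9.67 in shNC and of 28.9 and 13.1 in shNAT10. The same order held over all genes, at 15.8 and 10.4 in shNC and at 15.2 and 10.6 in shNAT10.

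**Figure D1:**
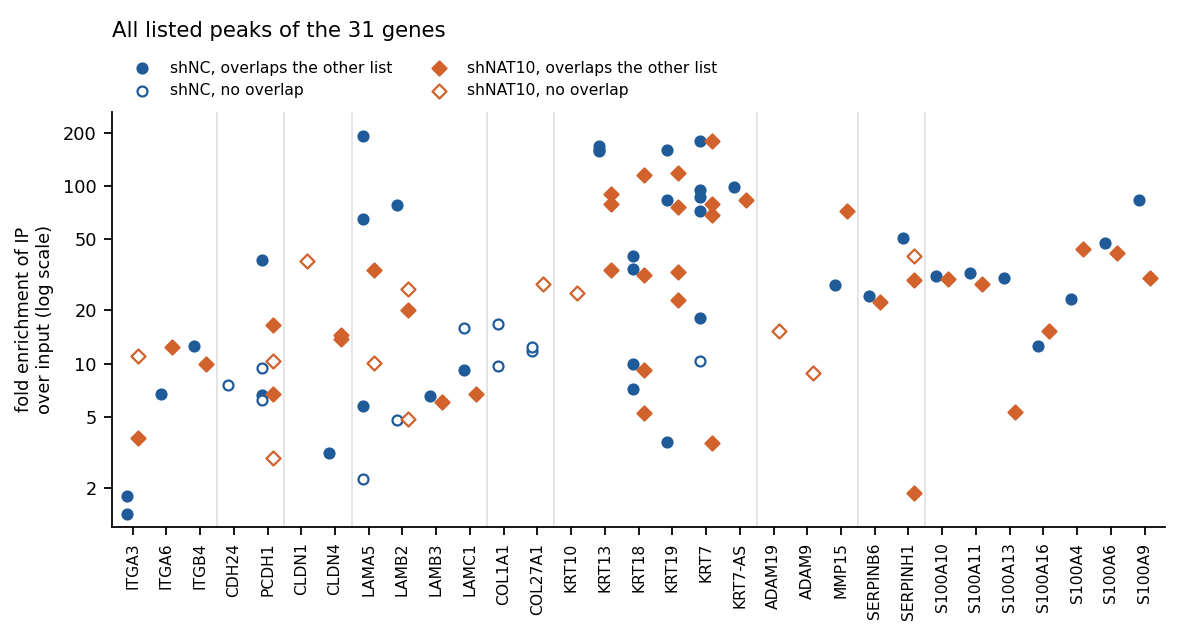
Fold enrichment of IP over input (log scale) of all listed peaks of the 31 genes, ordered by family. Circles are shNC and diamonds shNAT10, 1 IP and 1 input library each; filled symbols overlap a peak of the other list and open symbols do not. The 11 open circles reach 16.6 and the 12 open diamonds 40.6, while filled keratin symbols reach 180 and 179.

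Where a peak of each list was the other's largest overlap within 1 gene, the values were set side by side as a pair. Of 35 such pairs, 9 were at least 2-fold lower in shNAT10 (25.7%), beside 24.7% of the pairs of all genes and 29.4% of those of genes with a differential peak. Another 5 were at least 2-fold higher (14.3%), beside 21.8% and 25.6%. Lower values in shNAT10, whatever their size, were found in 25 of 35 pairs (71.4%, exact 95% interval 53.7 to 85.4%), beside 52.3% and 53.9%. The interval of the 35 pairs lies above the first of these backgrounds and holds the second. Without the keratins the count was 13 of 20 (65%, 40.8 to 84.6%), an interval that holds both backgrounds. The median log2 ratio of shNAT10 over shNC was -0.21, beside -0.08 and -0.17. The share of pairs at least 2-fold lower was thus near its background, and most of the pairs that were lower were lower by a small amount.

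**Figure D2:**
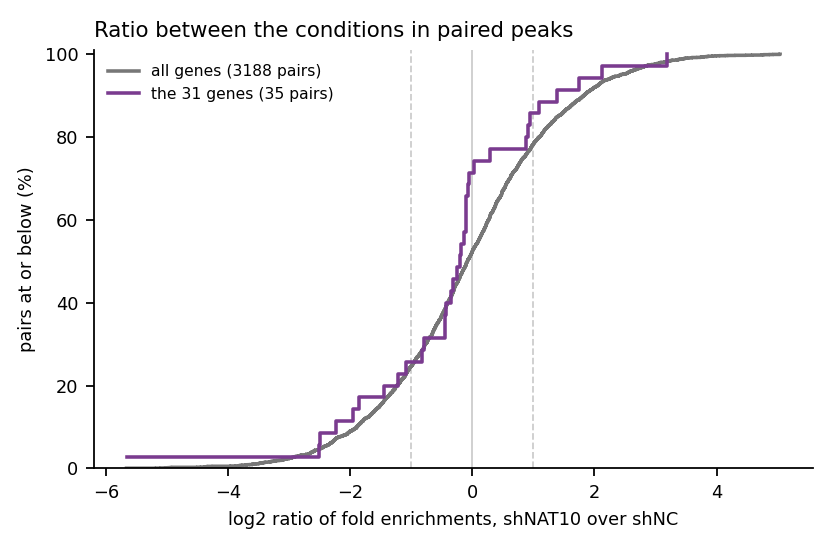
Cumulative share of pairs (%) against the log2 ratio of fold enrichment, shNAT10 over shNC, for the 35 pairs of the 31 genes and the 3188 pairs of all genes. Dashed lines mark a 2-fold difference; at 0 the curve of the 31 genes stands at 71.4% and that of all genes at 52.3%, and below the lower dashed line the curves lie close together.

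Among the integrins, the laminin receptor subunits ITGA3 and ITGA6 were higher in shNAT10 and ITGB4, which pairs with ITGA6 in the hemidesmosome, was slightly lower. ITGA3 had the lowest values of all 31 genes in shNC, 1.43 and 1.79 in neighbouring peaks of 120 and 121 bases. The ITGA3 peak of shNAT10 at chr17:50090001-50090361 (GRCh38) had a value of 3.82, 2.13-fold above the paired shNC peak that lay inside it. A further shNAT10 peak of ITGA3, at 11, had no counterpart. The ITGA6 peak was 6.75 over 180 bases in shNC and 12.4 over 450 bases in shNAT10, a 1.84-fold difference. The differential peak of ITGA6, annotated to the 3′-UTR, lay over the shNAT10 peak and not over the shNC peak. ITGB4 had 12.5 in shNC and 9.99 in shNAT10 over overlapping coding sequence, and its differential peak held 7 motif sites in 569 bases. The integrin differences thus did not run one way.

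Of the cadherin genes, only PCDH1 had peaks in both lists, and its lists coincided in part. PCDH1, a protocadherin of epithelial cells, had 4 peaks in each list, and only 2 of them formed pairs. Its strongest shNC peak, at 38.1, stood against 16.4 in shNAT10 (a shNC value 2.32-fold higher), but the shNAT10 peak was longer, 510 against 330 bases. The neighbouring pair had 6.61 and 6.76. The unshared PCDH1 peaks had 6.22 and 9.50 in shNC and 2.93 and 10.4 in shNAT10. The differential peaks of PCDH1 lay over the unshared shNC peaks and not over either pair. CDH24, a type II cadherin, had a single peak of 7.60 in shNC across 2 exonic blocks, annotated to the 3′-UTR.

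Of the claudins, only CLDN4 had peaks in both lists, and CLDN1 entered the set through its shNAT10 peak alone. CLDN1, a sealing claudin of stratified epithelium, was listed in shNAT10 only, at 38 over 239 bases of the 3′-UTR. CLDN4 had 1 peak of 3.14 in shNC (chr7:73832325-73832445) and 2 almost coincident ones of 13.7 and 14.4 in shNAT10. The CLDN4 pair differed 4.36-fold, but its peaks shared only 15 bases of the 121 and 237 that they covered, so the values describe adjoining stretches of the 3′-UTR more than the same one.

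The laminins, the integrin ligands of the basement membrane, had 4 pairs, and all 4 were lower in shNAT10, as were 52.3% of the pairs of all genes. LAMA5, an α-chain of the epithelial basement membrane, had the highest shNC value of the 31 genes, 191 at chr20:62309089-62309718, and 33.8 in the paired shNAT10 peak at chr20:62309239-62309990, a 5.65-fold difference. These peaks covered 390 and 360 bases and shared 240. The other LAMA5 peaks of shNC had 65.3, 5.74 and 2.23, and the peak with 65.3 lay partly inside the one with 191. A LAMA5 peak far upstream, at 10.1, was listed in shNAT10 only.

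LAMB2, a β-chain, had 77.9 in shNC and 20 in shNAT10 at chr3:49121144-49122033 and chr3:49121144-49122063, a 3.90-fold difference. Here the extents nearly coincided, 720 shared bases out of 720 and 750, so that the values refer to the same 3 blocks. LAMB2 also had unshared peaks of 4.83 in shNC and of 26.2 and 4.86 in shNAT10. LAMB3, the β-chain of the hemidesmosomal laminin, had 6.56 and 6.10 in its 3′-UTR, and LAMC1, the common γ-chain, had 9.16 and 6.73. A second LAMC1 peak of 15.9 was listed in shNC only, and the differential peak of LAMC1 lay over it and not over the pair. The large laminin differences were therefore in LAMA5 and LAMB2, which also had the highest laminin values, and LAMB3 and LAMC1 differed by 1.08-fold and 1.36-fold.

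No collagen peak was shared, out of 4 in shNC and 1 in shNAT10, while 48.3% and 48.5% of the peaks of all genes were unshared. Peaks this few, of 2 genes, describe no trait of the family. COL1A1, a chain of type I collagen, had peaks of 16.6 and 9.67 in shNC and none in shNAT10. COL27A1, a fibrillar collagen, had 11.7 and 12.4 in shNC and, at another place in the gene, 27.9 in shNAT10. The shNAT10 peak of COL27A1 covered 181 bases. Neither collagen differential peak held a motif site, in 210 and 121 exonic bases.

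The keratins, the subunits of the intermediate filaments, had the highest median fold enrichment of the families, 82.9 in shNC and 68.8 in shNAT10, and the most pairs, 15 with KRT7-AS included. Of these 15, 12 were lower in shNAT10, 4 of them at least 2-fold, and 2 were at least 2-fold higher. Over the pairs of all genes, 52.3% were lower, 24.7% at least 2-fold lower and 21.8% at least 2-fold higher. The keratin count of pairs at least 2-fold lower was thus near its background, and several pairs came from the same gene. KRT13, a type I keratin of non-cornified stratified epithelium, was lower in all of its pairs. Its 3 shNC peaks had 168, 160 and 157 and the paired shNAT10 peaks 78.7, 90.2 and 33.5, so that shNC was 2.13-fold, 1.77-fold and 4.69-fold higher. The first of these pairs, at chr17:41501011-41501546, had the same 536 bases in both lists. The differential peak of KRT13 had these bounds too, so the other pairs lay outside it. All 3 KRT13 pairs thus differed the same way. They came from the same gene and the same libraries, so they are not independent and do not stand for replicates. Whether the IP or the input of KRT13 differed was not tested.

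KRT19, a type I keratin of simple and basal epithelium, did not behave so evenly. At chr17:41523647-41524896 it had 159 in shNC and 118 in the paired shNAT10 peak. At chr17:41527859-41528308 it had 82.9 and 22.8, a shNC value 3.64-fold higher, over 450 and 270 bases. Between them lay a 181-base peak with the same bounds in both lists, chr17:41525225-41525405, which had 3.63 in shNC and 33.0 in shNAT10, a 9.09-fold difference. The shNC peak of that pair had an FDR of 0.060, and was the single peak of the 50 in shNC above an FDR of 0.05. A 210-base shNAT10 peak at 76.1 touched the end of the long shNC peak by a single base. Within KRT19, lower values at both ends of the gene stood beside higher ones in the middle. The differential peak of KRT19 lay over the pair with 159 in shNC and not over those with 82.9 and 3.63.

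**Figure D3:**
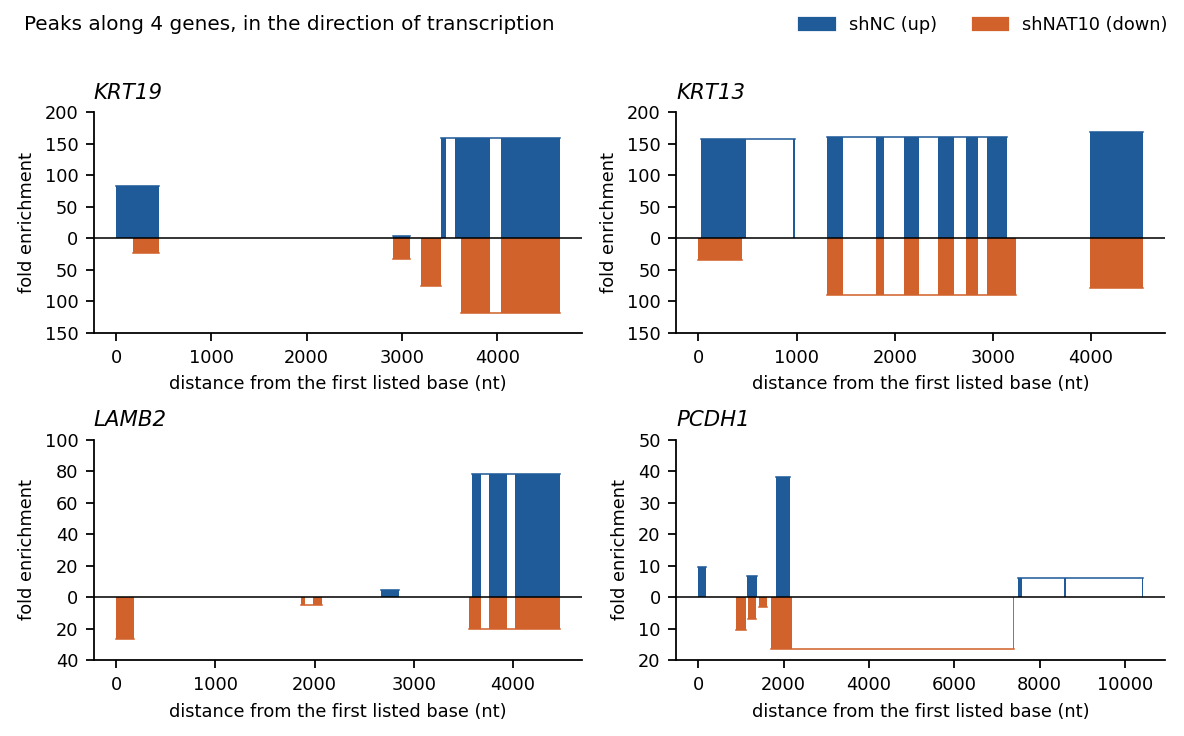
Listed peaks of KRT19, KRT13, LAMB2 and PCDH1, with the distance in genomic bases from the first listed base along the direction of transcription on the x axis and fold enrichment on the y axis (shNC upward, shNAT10 downward, linear). Blocks are exonic parts and thin lines join the blocks of 1 peak. KRT13 keeps its 3 peak positions while its shNAT10 blocks reach at most 90.2, and the middle KRT19 peak is 3.63 upward and 33.0 downward.

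KRT7 and KRT18 are the type II and type I keratins of simple epithelium. KRT18 had 4 pairs, and 3 differed little. Those 3 had 7.19, 9.89 and 40.1 in shNC and 5.26, 9.19 and 31.4 in shNAT10. The fourth, at chr12:52952663-52952901, had 34.1 in shNC and 115 in shNAT10, a 3.37-fold difference over 239 shared bases. In KRT18 the only difference past 2-fold was therefore a higher shNAT10 value in 1 of 4 pairs. The differential peaks of KRT18 lay over the pairs with 7.19 and 40.1 in shNC and not over this one.

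KRT7 held the largest difference of all 3188 pairs of the series. The shNC peak at chr12:52241947-52243257 had 180 over 271 bases in 2 blocks, while the shNAT10 peak at chr12:52243047-52243197 had 3.55 over 151 bases, a log2 ratio of -5.66. The FDR of that shNAT10 peak was 0.032. The pairs on either side did not share this: the upstream one had 72.5 and 68.8, and the downstream ones 95.2 and 179 and 87.3 and 79.0. The difference of KRT7 thus lay in 1 of its 4 pairs, and the next pair ran the other way by 1.88-fold over the same 361 bases.

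KRT7-AS, an RNA transcribed from the opposite strand, had 98.8 in shNC and 83.2 in shNAT10 at chr12:52245404-52245760, with the same 357 bases in both lists. This peak covers a part of the KRT7 peak with 95.2 and 179 on the other strand. Whether the libraries kept the strand is not given in the sources used here, so reads of KRT7 and KRT7-AS may not be separable. Beside KRT7 and KRT7-AS, 2 KRT13 peaks and the LAMA5 peak with 2.23 in shNC also lay over a peak of a gene on the opposite strand. KRT10, a keratin of differentiating suprabasal cells, was listed in shNAT10 only, at 24.9 over 388 bases annotated to the 3′-UTR. FaDu is a squamous line, and of 8 squamous and epithelial markers, KRT5, KRT14 and TP63 among them, 0 had a row in the differential table. Since the lists give symbols through that table alone, this says nothing about whether the markers were expressed.

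The metalloproteases of the rule, enzymes that cut matrix and cell surface proteins, had few peaks. MMP15, a membrane-anchored matrix metalloprotease, had 27.7 in shNC (chr16:58046543-58046871) and 72.7 in shNAT10 (chr16:58046334-58046871), a 2.62-fold difference in the 3′-UTR. The shNAT10 peak was longer, 538 against 329 bases. ADAM19 and ADAM9, membrane-bound sheddases, were listed in shNAT10 only, at 15.2 and 8.87. MMP15 was thus the only metalloprotease gene with a pair. ADAM19 and ADAM9 entered the set through their shNAT10 peaks alone, so the family gives no common direction.

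The serpins differed less. SERPINB6, an intracellular protease inhibitor, had 24.1 in shNC and 22.3 in shNAT10. SERPINH1, the collagen chaperone HSP47, which lacks inhibitor activity, had 51.1 over 480 bases in shNC. In shNAT10 the same stretch held 2 peaks, of 29.6 over 241 bases and of 1.86 over 150 bases, and an upstream one of 40.6 had no counterpart. The main SERPINH1 pair was 1.73-fold higher in shNC.

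The S100A genes encode small EF-hand proteins that change shape when they bind calcium, with S100A10 as the exception that does not bind it. All 7 members had 1 peak in each list, and all 7 peaks were shared. Over all genes, 48.3% of the shNC peaks and 48.5% of the shNAT10 peaks were unshared. S100A10, the annexin A2 partner, had 31.1 in shNC and 29.9 in shNAT10. S100A11 had 32.5 and 28.1, and S100A6 had 47.9 and 42.0, so these 3 differed by at most 1.16-fold. S100A16 had 12.5 and 15.2.

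The other S100A genes differed more. S100A9, a subunit of calprotectin, had 82.9 in shNC and 30.5 in shNAT10, a 2.72-fold difference over nearly the same bases, 548 and 490 with 490 shared. S100A13 had 30.4 and 5.34, a 5.69-fold difference, but its shNC peak of 330 bases spanned 2 blocks and the shNAT10 peak covered 180 bases in 1 of them. S100A4, known for its link to cell motility, had 23.1 and 44.4, a shNAT10 value 1.92-fold higher, over 322 and 410 bases. The 2 S100A pairs past 2-fold, of 7 pairs, were therefore both lower in shNAT10, and S100A4 was the largest in the other direction. Over the pairs of all genes, 24.7% were at least 2-fold lower and 21.8% at least 2-fold higher.

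As a ratio is easiest to read where peaks have the same extent, the pairs were also restricted, after their values had been seen, to those sharing at least 80% of the bases of both peaks. This left 16 of the 35 pairs, of KRT7, KRT7-AS, KRT13, KRT18, KRT19, LAMB2, S100A6, S100A9, S100A10 and S100A11. Of them, 4 were at least 2-fold lower (LAMB2, S100A9 and 2 of KRT13) and 2 at least 2-fold higher (1 each of KRT18 and KRT19). These shares, 25% and 12.5%, stood near those of all such pairs, 20.5% and 16.9%. The median log2 ratio of these 16 was -0.23, beside -0.11 for the 1265 such pairs of all genes. The largest differences of KRT7, LAMA5, S100A13 and CLDN4 were not among these 16.

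Counted by peak, the differential peaks of the 31 genes, 39 in all, lay more in coding sequence than those of the whole table. The annotation put 15 in the 3′-UTR (38.5%, exact 95% interval 23.4 to 55.4%), 15 in coding sequence (38.5%) and 9 in the class named exon without more detail (23.1%). Over all 2807 differential peaks the shares were 56.1%, 19.4% and 23.7%. However, 6 of the genes had 2 or more of the 39 peaks, and peaks of 1 gene are not independent. With 1 peak kept per gene, 13 of 31 (41.9%) lay in the 3′-UTR and 10 of 31 (32.3%) in coding sequence, a smaller departure from the whole table. Over 1 exonic block was found in 19 of 39 (48.7%), beside 26.9%, and the median exonic length was 330 bases, beside 241. Of the 39, 27 (69.2%) lay over peaks of both lists, beside 40.4% of all. Another 6 (15.4%) lay over a shNC peak only, beside 32.2%, and 6 (15.4%) over a shNAT10 peak only, beside 27.3%.

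The C-rich motif was listed in 27 of the 39 (69.2%, 52.4 to 83.0%), beside 60.9% of all differential peaks, a share within that interval. Some listed sites lay between the exonic blocks, and a site within them was found in 24 of 39 (61.5%), beside 57.9%; ADAM19, S100A10 and 1 LAMA5 peak had listed sites outside the blocks only. By class, the motif was listed in 6 of 15 in the 3′-UTR (40.0%, beside 56.6% of all such peaks), 12 of 15 in coding sequence (80%, beside 68.6%; within the blocks 10 of 15, 66.7%, beside 60.7%) and 9 of 9 in the exon class (beside 64.5%). Peaks with a site were longer, with a median of 390 bases against 181 without, as also over all differential peaks, with 271 and 210. Per 100 exonic bases there were 0.533 sites within the blocks, beside 0.490 over the whole table. The densest were KRT7-AS, with 6 sites in 357 bases, the 3′ KRT7 peak, with 7 in 420, and KRT13, with 7 in 536. The 12 without a listed site included both collagens and the 3′-UTR peaks of LAMA5, LAMB3 and LAMC1.

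Genes that work with these families were read from 6 lists of junction, adhesion, matrix and differentiation genes. Of 123 genes, 28 had a differential peak, with 37 peaks in shNC (20 of them unshared), 33 in shNAT10 (16 unshared) and 17 pairs. The unshared shares, 54.1% and 48.5%, were near the 48.3% and 48.5% of all genes. Of the 17 pairs, 4 were at least 2-fold lower and 6 at least 2-fold higher in shNAT10, 23.5% and 35.3%, beside 24.7% and 21.8% of all pairs.

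Genes of the hemidesmosome and desmosome list differed in both directions. PKP4 was lower, with 16.6 in shNC and 5.84 in shNAT10. PKP3 had 54.6 and 15.1, but its peaks met in a single base, so these values describe adjoining stretches. JUP, or plakoglobin, had 8.79 and 46.5, a 5.29-fold higher value in shNAT10. EVPL, or envoplakin, a linker of desmosomes to the cornified envelope, had 4.93 and 89.3, but over 151 and 570 bases. Of the adherens junction genes, NECTIN1, a cell adhesion receptor, had the highest shNC value of the lists, 80.1, and 71.6 in shNAT10. ACTN4, an actinin of the focal adhesion, had 2.36 and 6.94 at the pair past 2-fold, and 20.4 and 15.6 at its other pair.

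Among matrix genes, LTBP4, which holds latent TGF-β in the matrix, had 58.0 in shNC and 6.97 in shNAT10 over the same 240 bases, an 8.32-fold difference. Its relative LTBP3 went the other way, with 3.59 and 8.81. AGRN, or agrin, had 21.3 and 8.65. TIMP2, an inhibitor of metalloproteases, had 4.14 and 14.9 in its pair, and PLAU, or urokinase, had 13.8 and 39.7. TIMP2 also had unshared peaks of 22.5 and 6.49 in shNC and of 8.45 in shNAT10. F11R, an adhesion molecule of the tight junction, had a peak of 20.3 in shNAT10 only, and CSTA, the 1 differentiation gene with a differential peak, had 6.75 and 31.4 in shNC only.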

How the data were processed

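acRIP-seq was performed in FaDu cells with shNC or shNAT10, 1 IP and 1 input library each, and sequencing and analysis were run by a company for the authors. The submitters' processing notes name cutadapt 2.5, HISAT2 2.1.0, HOMER 4.10.4 and featureCounts 1.6.3; the peak caller is not given in the sources used here. Positions are GRCh38, 1-based. The deposited peak lists give, per condition, fold enrichment as a linear ratio of IP over input; scaling between libraries is not stated. The log10 FDR and the number of motif sites were read as score columns, as the authors deposited them. The differential table also holds the authors' own fold changes and p-values between conditions; these were not used, and only its position, region class, symbol, biotype and motif columns were read.

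Overlaps needed at least 1 bp of exonic blocks on the same strand. Pairs were mutual largest overlaps within 1 gene, and a ratio of 2-fold was the limit of size. Shares have exact (Clopper-Pearson) 95% intervals over peaks. Python 3.11.15, pandas 2.3.3 and scipy 1.17.1 were used, and the overlap code was tested on simulated data. Named with values were all members with overlapping peaks, with 2 or more peaks in a list, in a family of 5 or fewer or highest in their family and list; of the partner lists, pairs past 2-fold and the highest 2 values. Members and lists were chosen with earlier results of these data known.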

Additional observations from a re-analysis of the deposited data

How the results depend on the processing

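No paired analysis was possible because no replicates exist: 1 IP and 1 input library stand for each condition. For the 31 genes, 9 summary values were recomputed under 41 alternatives. Of these, 31 kept a share or median inside its 95% interval (or, for the rank difference, its sign), or a count within 1.5 times. Another 10 moved it further. Shares and counts have no sign, so a direction could turn only for the median log2 ratio, where 0 alternatives turned it. When overlaps had to cover 50% or more of each peak, the unshared share was 36% in both lists. Over all genes it was 59.0% and 59.1%, and over genes with a differential peak 56.6% and 55.6%. Under that rule, 9 pairs were at least 2-fold lower and 3 higher in shNAT10 (28.1% and 9.38%, beside 23.2% and 20.6% over all genes). Counting as shared any peak of the same gene, the unshared shares were 6% in shNC and 8% in shNAT10, beside 30.4% in both lists over all genes. Over genes with a differential peak they were 22.4% and 20.5%. With a limit of 1.5-fold, 11 pairs were lower and 8 higher (31.4% and 22.9%, beside 34.8% and 30.7% over all genes). With 3-fold, 6 were lower and 3 higher (17.1% and 8.57%, beside 14.1% and 12.9% over all genes). In alternatives chosen after seeing the data, 80% overlap of both peaks left 4 pairs lower and 2 higher (25% and 12.5%, beside 20.5% and 16.9% over all genes). Leaving out the keratins, also chosen then, left 5 lower and 3 higher of 20 pairs (25% and 15%, beside 24.7% and 21.8% over all genes). These counts drop with the number of pairs. The 95% interval of the median log2 ratio over the pairs, -0.45 to -0.08, covers the choice of pairs only. With 1 library of each kind, the spread between replicates is unknown.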
